A study of Mus musculus with 4 samples.

Results

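Testis tissue kept for 7 days in organ culture was compared, gene by gene, with testis that had reached the same total age of 14 days postpartum (dpp) in the animal. Cell barcodes of these 2 libraries entered the comparison if they had 500 or more genes detected and no more than 20% of counts from the mitochondrial genome, which gave 4909 cells of the culture and 6338 cells of 14 dpp, or 11247 of the 23670 cells kept in the 4 libraries of the series. The 7-day culture came from 7 dpp testes of C57BL/6 mice with the Acr-Gfp transgene, a fluorescent reporter named for a germ cell gene. These testes were stripped of their capsule, cut into fragments and laid on agarose under a silicone (PDMS) ceiling, in α-MEM with AlbuMAX, a lipid-rich serum albumin. The 14 dpp library came from uncultured testis of the same transgenic strain. A second pair, culture for 2 days against 9 dpp in vivo, carried the same transgene and is given beside the first to show which differences appeared late. Each group was 1 library, and the labels do not say how many animals were pooled, so no difference here has a replicate check and culture cannot be told apart from library. No test was run, and a difference is described as a change only where it reached 2-fold.

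The counts are unique molecular identifiers (UMIs), each standing for 1 captured RNA molecule of polyadenylated RNA read from its 3′ end. UMIs were summed over the cells and divided by the library total to give the relative abundance called CPM (the count scaled to a total of 1000000). The 7-day culture held 38192203 UMIs in the cells kept and 14 dpp held 58069236, with medians of 5646 and 6542.5 UMIs per cell. A total of 46 barcodes occurred in both libraries, 0.937% of the culture and 0.726% of 14 dpp. One protocol in the labels mentions gonads of females, whereas Sertoli cell markers together had 5688 CPM in cultured tissue and 8604 CPM at 14 dpp and germ cell markers had 6375 and 6227 CPM. The label of testis was therefore kept.

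In the testis of this age, Sertoli cells stop dividing and mature under follicle-stimulating hormone (FSH) and androgen, and they build the niche in which germ cells enter meiosis. Leydig cells between the tubules make steroids from cholesterol, first as a fetal and then as an adult population. Macrophages, endothelial cells and stroma fill the interstitium, and myoid cells wrap the tubules. An organ culture has no blood flow and no pituitary hormones unless they are supplied.

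Among 16679 genes whose UMIs in the 4 libraries summed to 50 or more, 584 (3.50%) were at least 2-fold higher in the 7-day culture and 439 (2.63%) at least 2-fold lower, on the scale of log2 of CPM + 1. The median log2 ratio of all genes was 0.00. Over whole libraries, fewer cells of a type and less RNA per cell cannot be told apart, so values within cell classes follow where cells allow. Mitochondrial transcripts held 5.17% of UMIs in the culture and 6.11% at 14 dpp. Inflammation and interferon genes, which set cultured testis apart at both times, served as a reference: 34 of 48 and 14 of 37 were higher, with medians of 1.60 and 0.70. The text below describes other pathways. A gene was called gained late when its ratio was at least 2-fold higher in the 7-day pair and under 0.5 on the log2 scale in the 2-day pair, which 142 genes (0.851%) met. Lost late was the mirror image and was met by 132 genes (0.791%).

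Immediate early genes, transcription factors and feedback regulators that cells switch on within minutes of a stimulus, were the pathway list with the highest median. Of its 25 members 16 were higher and 0 were lower, against a background of 3.50% and 2.63%. The list median was 1.64, against 0.50 in the 2-day pair, where 6 members were higher and 1 was lower (background 4.12% and 3.41%). Fos (ENSMUSG00000021250, GRCm38 chromosome 12, 85473890 to 85477273), a subunit of the AP-1 transcription factor, had 354 CPM in the 2-day culture, 250 CPM at 9 dpp, 798 CPM in the culture of 7 days (95% Poisson interval 789 to 807) and 178 CPM at 14 dpp (175 to 182). Its level was thus highest in the 7-day culture and lowest at 14 dpp, with log2 ratios of 2.15 and 0.50 in the 7-day and the 2-day pair. The intervals here and below cover counting error only.

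Of the other AP-1 family members in the list, Junb, Atf3, Jun and Fosb passed 2-fold, and Jund and Fosl2 did not, with log2 ratios of 0.62 and 0.79. Junb had 424 CPM in the 2-day culture, 148 CPM at 9 dpp, 622 CPM in the culture of 7 days and 113 CPM at 14 dpp, with log2 ratios of 2.44 in the 7-day and 1.51 in the 2-day pair. Atf3, a stress-induced repressor of the same family, had 10.9, 6.90, 28.2 and 3.05 CPM in that order, a log2 ratio of 2.85 and the highest of the list. Jun and Fosb had log2 ratios of 1.97 and 2.06 in the 7-day pair and 0.38 and 0.22 in the 2-day pair, so both were gained late. Egr1, Egr2 and Ier2 had log2 ratios of 2.06, 1.96 and 1.90. The antiproliferative gene Btg2 went from −0.08 in the 2-day pair to 1.67. Klf2 and Klf4, 2 Krüppel-like factors of the list, had whole-library values of −0.35 and 0.16.

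Of the cell classes, Sertoli-like cells had the highest immediate early ratios. Cells were clustered and named from marker genes, and ratios within classes are given for the 4 largest: germ-like (2606 in the culture, 3740 at 14 dpp), Sertoli-like (531 and 1109), stromal- or myoid-like (1481 and 1072) and Leydig-like (103 and 163). In Sertoli-like cells 21 of 23 immediate early genes were at least 2-fold higher, with a median of 2.80, where 9.40% of all genes were higher and 9.36% lower. Fos had 1913 CPM in cultured Sertoli-like cells and 62.1 CPM in those of 14 dpp, a log2 ratio of 4.92. Cyr61, a matricellular target of YAP signalling, had 923 and 23.0 CPM, a ratio of 5.27. Klf4 had 78.4 and 8.70 CPM and Klf2 136 and 30.8 CPM in these cells. In stromal- or myoid-like cells the list median was 0.78, with 8 of 25 higher and 2 lower (background 5.45% and 4.40%), and the lower members were Klf2 at −1.92 and Klf4 at −1.04. Leydig-like cells had a median of 0.21, with 4 of 20 higher and 2 lower (background 5.26% and 8.20%). Germ-like cells had 0.15, with 2 of 23 higher and 0 lower (background 0.787% and 2.26%).

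The Sertoli-like class was not made of the same clusters on both sides. At 14 dpp 351 of its cells formed a cluster with frequent germ cell transcripts, 6092.5 CPM of germ markers against 434 to 684 CPM in the other Sertoli-like clusters. The other cells were split by library too, with 512 culture and 9 in vivo cells in 1 cluster and 4 and 740 in another, so leaving out the cluster of 351 cells does not make the sides alike. Without that cluster, a choice made after the values were seen, 22 of 23 immediate early genes were higher, the median was 2.55 and Fos stood at 4.57, where 10.1% of all genes were higher and 6.13% lower. By contrast the Sertoli-like medians for cell division (−1.12) and the unfolded protein response (−0.81) became 0.06 and −0.29 without it. Those lists are therefore not read in Sertoli-like cells. Ribosomal protein genes held 14.4% of UMIs in cultured Sertoli-like cells and 9.02% in those of 14 dpp, and mitochondrial transcripts 6.89% and 9.04%. The ribosomal list median in this class was 0.76, and 1.03 with 43 of 75 higher without the cluster. The part of this shift in the immediate early values was not tested. Collagenase and trypsin were used to release cells in every group, and the part of that step in the immediate early values was not tested.

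**Figure D1:**
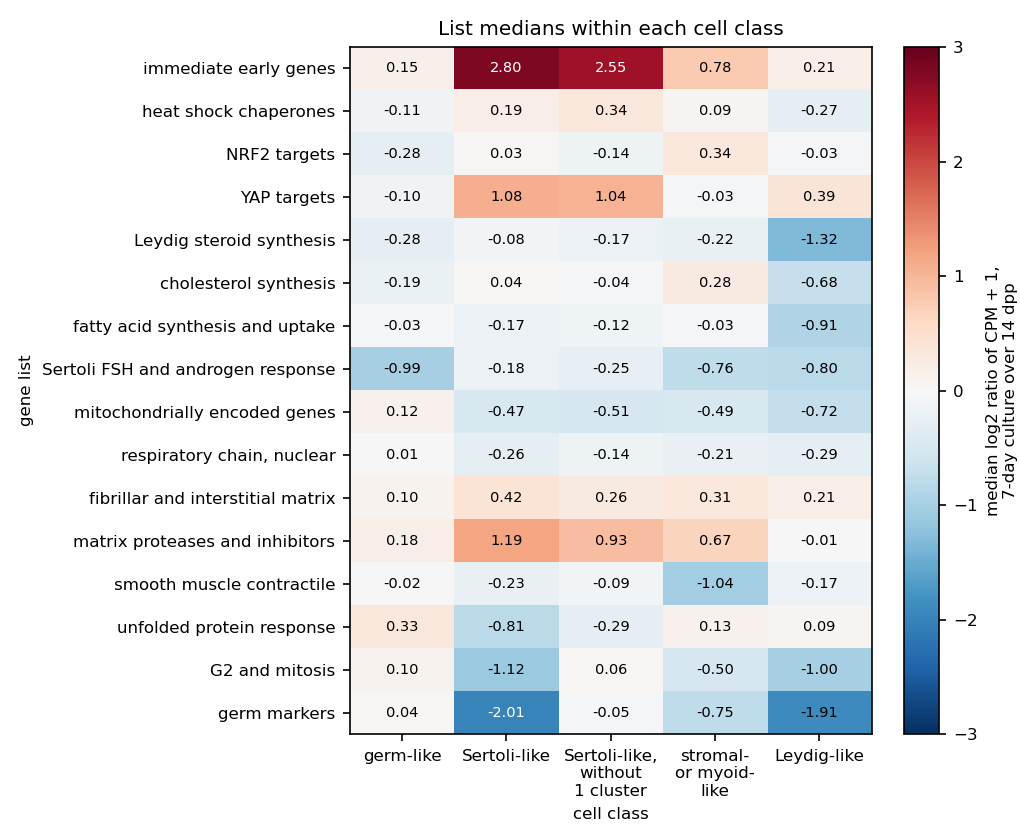
Median log2 ratio (7-day culture over 14 dpp, CPM + 1) of 16 gene lists within each cell class, as a colour and a number; columns are classes and rows are lists. Immediate early genes stand at 2.80 in Sertoli-like cells and at 2.55 without the cluster rich in germ cell transcripts, and steroid synthesis stands at −1.32 in Leydig-like cells.

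Promoters of immediate early genes are known to hold CArG boxes, bound by serum response factor, and cAMP response elements (CRE, TGACGTCA), bound by CREB. RefSeq promoter windows (GRCm38.p6, 250 bases before to 50 after a start) of 20 of the 25 members were searched. Both motifs were sought on both strands. The other members, Egr1 among them, were not searched, so the motif counts say nothing about them. A CArG box was in windows of 3 members (Dusp5, Egr2, Zfp36) and a CRE in those of 3 (Btg2, Dusp1, Maff). By window, 6 of their 26 held a CArG box and 3 a CRE. Of all 27025 genes with a window 1.81% had a CArG box and 2.03% a CRE, and of all 32851 windows 1.63% and 1.79%. In the steroid synthesis list, windows of 13 of 17 members were searched for AAGGTCA, the core motif of the regulator SF-1. It was on either strand in windows of 0 of these 13, against 5.38% of all genes, a share at which a short list may have none. Star and Cyp17a1 were not among the genes searched. The 250 bases before the start are printed for Zfp36, which degrades cytokine messages and had a log2 ratio of 1.67, and for Btg2, because each has a single listed start, was at least 2-fold higher and carries a motif in this stretch. Both genes lie on the minus strand, the sequences are written 5′ to 3′ on that strand, and the capitals mark the CArG box of Zfp36 (chr7:28379229-28379478) and the CRE of Btg2 (chr1:134079156-134079405).
Zfp36: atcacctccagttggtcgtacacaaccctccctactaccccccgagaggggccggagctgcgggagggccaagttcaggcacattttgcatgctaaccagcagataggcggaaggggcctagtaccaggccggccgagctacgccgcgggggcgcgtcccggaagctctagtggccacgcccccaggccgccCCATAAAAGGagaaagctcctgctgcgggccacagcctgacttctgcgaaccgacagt
Btg2: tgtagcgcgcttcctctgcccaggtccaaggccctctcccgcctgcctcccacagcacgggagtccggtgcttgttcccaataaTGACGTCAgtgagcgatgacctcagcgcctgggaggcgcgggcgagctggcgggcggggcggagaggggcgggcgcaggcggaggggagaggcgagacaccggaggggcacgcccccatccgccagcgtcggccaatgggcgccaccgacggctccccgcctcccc
A match is a description of these letters and not a measured site, and no match says only that the letters are not in the window.

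Other stress programmes had fewer members past 2-fold than the immediate early genes. Against a background of 3.50% higher and 2.63% lower, 2 of 20 heat shock chaperones were higher and 0 lower, with a list median of −0.06. The inducible chaperone Hspa1a had 116 CPM in the 2-day culture, 68.8 CPM at 9 dpp, 391 CPM in the culture of 7 days and 96.7 CPM at 14 dpp. It is nearly identical to Hspa1b, so reads may be split between them. The small heat shock protein Hspb8 had 30.3, 3.27, 13.5 and 1.69 CPM in that order, higher in culture at both times. In Sertoli-like cells 6 of 20 heat shock chaperones were higher and 1 lower, with a median of 0.19 (background 9.40% and 9.36%). Without the cluster rich in germ cell transcripts 8 were higher and 1 lower, with a median of 0.34. There 1232 of all 12147 genes were higher and 745 lower. The medians in stromal- or myoid-, Leydig- and germ-like cells were 0.09, −0.27 and −0.11. Over the whole library the unfolded protein response list had 0 of 25 higher and 1 lower, with a median of 0.14 (background 3.50% and 2.63%). Among 28 targets of NRF2, the regulator of antioxidant genes, 6 were higher and 0 lower, with a median of 0.32: Gsta2, Gsta1, Cbr3, Srxn1 and the ferritin genes Fth1 and Ftl1. Fth1 had 3092 CPM in the culture of 7 days and 1427 CPM at 14 dpp. Gsta1 and Gsta2 are near-copies that may share reads, so they may not be separate members. The glutathione transferase Gsta2 was highest in Leydig-like cells, with 1032 CPM in cultured cells and 220 CPM at 14 dpp. In that class 4 of 28 NRF2 targets were higher and 4 lower, with a median of −0.03 (background 5.26% and 8.20%). The list medians in germ-, Sertoli- and stromal- or myoid-like cells were −0.28, 0.03 and 0.34. Without macrophage- and endothelial-like cells, an alternative added after seeing the data, the whole-library NRF2 median was 0.10.

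Several genes of steroid production were lower in the culture. In Leydig-like cells 9 of 16 members of the steroid synthesis list were at least 2-fold lower and 2 were higher, with a median of −1.32 (background 8.20% lower, 5.26% higher). Over the whole library 5 of 17 were lower and 2 higher (background 2.63% and 3.50%), with a median of −0.43 against −0.41 in the 2-day pair. With class shares set equal on both sides the median of the 7-day pair was −0.18. Star, which carries cholesterol into mitochondria, had 25.8 CPM in the 2-day culture, 23.1 CPM at 9 dpp, 6.70 CPM in the culture of 7 days (5.91 to 7.58) and 37.1 CPM at 14 dpp (35.5 to 38.7). The culture was thus even with its partner at 2 days and lowest of all libraries at 7 days, with log2 ratios of 0.15 and −2.31.

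Hsd3b6 (ENSMUSG00000027869, chromosome 3, 98805504 to 98814443), the 3β-hydroxysteroid dehydrogenase of the adult Leydig cell, had 0.207 CPM in the 2-day culture, 0.0992 CPM at 9 dpp, 0.707 CPM in the culture of 7 days (0.466 to 1.03) and 25.3 CPM at 14 dpp (24.1 to 26.7). It appeared in vivo between 9 and 14 dpp and stayed low in culture, 35.8-fold below 14 dpp and a log2 ratio of −3.95 (0.14 in the 2-day pair). Within Leydig-like cells it had 16.8 and 601 CPM. The related Hsd3b1, found in fetal and adult Leydig cells, stayed within 2-fold in that class, with 3092 CPM in cultured cells and 1844 CPM at 14 dpp, a log2 ratio of 0.75. These 2 genes are close in sequence, so some of their reads may be assigned to the other.

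Cyp17a1, Insl3 and Ren1 were low in culture at both times. Cyp17a1, which turns progestins into androgens, had 1.27 CPM in the 2-day culture, 107 CPM at 9 dpp, 3.77 CPM in the culture of 7 days and 54.2 CPM at 14 dpp, with log2 ratios of −5.56 and −3.53 in the 2-day and 7-day pairs. The peptide hormone gene Insl3 had 4.65, 41.9, 2.44 and 25.6 CPM in that order. Ren1, which encodes renin, had 8.79, 110, 0.367 and 30.2 CPM, and its ratio reached −4.51 in the 7-day pair. Srd5a1, the 5α-reductase, had a ratio of −1.52. The side-chain cleavage enzyme Cyp11a1 had −0.18, with 86.3 and 97.7 CPM, and the receptor of luteinizing hormone, Lhcgr, had −0.43 from 83 and 190 UMIs. Akr1cl and Akr1c14, of the aldo-keto reductase family, were higher by 1.48 and 1.12 over the whole library. Akr1cl was also found in Sertoli-like cells. Without their cluster rich in germ cell transcripts, these had 544 CPM in the culture and 98.6 CPM at 14 dpp, a log2 ratio of 2.45. Some lipid synthesis genes were lower in Leydig-like cells too: 10 of 22 fatty acid genes and 7 of 23 cholesterol synthesis genes were at least 2-fold lower, with medians of −0.91 and −0.68 and a background of 8.20%. Of these lists 1 gene was higher, the fatty acid-binding protein gene Fabp5 at 1.03. Mitochondrially encoded genes had a median of −0.72 in this class and −0.30 over the whole library. Germ cell markers summed to 155 CPM in Leydig-like cells of the culture and 515 CPM in those of 14 dpp, and their part in these values was not tested.

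**Figure D2:**
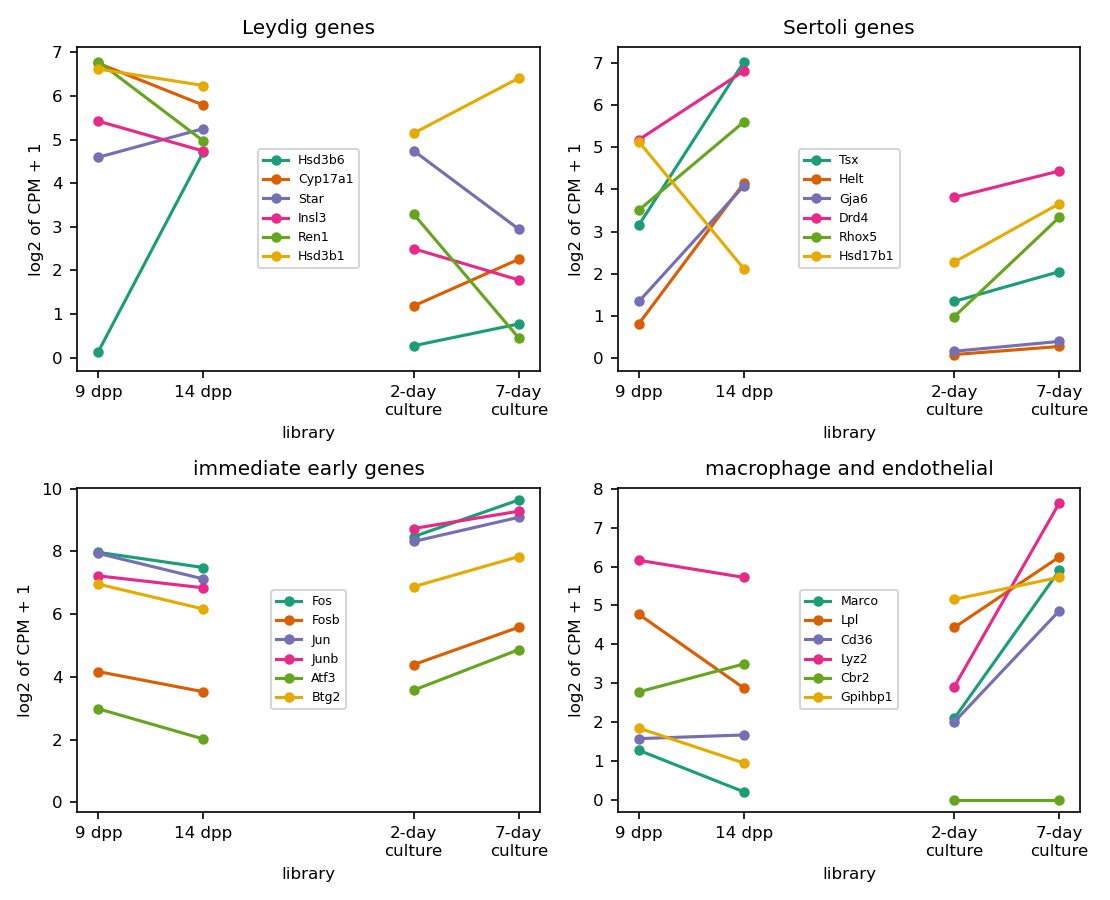
Level (log2 of CPM + 1) of 24 genes in the 4 libraries, with 1 point per library and lines that join the younger and the older library of a kind. Hsd3b6, Tsx, Helt and Gja6 are higher at 14 dpp than at 9 dpp and stay low in both cultures, whereas Fos and Jun are highest in the 7-day culture.

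Part of a hormone-responsive Sertoli cell list was lower in the culture. In the list of FSH- and androgen-responsive Sertoli genes, 8 of 29 were lower and 0 higher over the whole library, with a median of −0.58 (background 2.63% and 3.50%). In the 2-day pair 10 were lower and 1 was higher, with −0.78 (background 3.41% and 4.12%). With class shares set equal on both sides the median was −0.23. Within the Sertoli-like class 7 of 29 were lower and 1 was higher, with a median of −0.18 and a background of 9.36% and 9.40%. The same list had a median of −0.99 in germ-like cells, with 13 of 27 lower and 0 higher (background 2.26% and 0.787%), so transcripts of Sertoli cell genes in other cells also differed, and the part of free RNA was not tested. Fshr, which encodes the FSH receptor, had −0.25 in Sertoli-like cells without the cluster rich in germ cell transcripts.

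Rhox5, an androgen-dependent homeobox gene on the X chromosome, had 0.976 CPM in the 2-day culture, 10.4 CPM at 9 dpp, 9.14 CPM in the culture of 7 days (8.20 to 10.1) and 47.7 CPM at 14 dpp (46.0 to 49.5). The 7-day culture stood near 9 dpp, with log2 ratios of −2.27 in the 7-day and −2.53 in the 2-day pair. The dopamine receptor gene Drd4 had 13, 35.3, 20.7 and 111 CPM in that order, a ratio of −2.37 in the 7-day pair. Tubb3, a β-tubulin gene known from neurons and Sertoli cells, was lower by 2.10 in log2, at 44.8 CPM against 195 CPM, but not in Sertoli-like cells alone. Its ratio was −1.82 in germ-like, −1.65 in Sertoli-like, −1.51 in stromal- or myoid-like and −1.17 in Leydig-like cells. The secreted products Defb36, Cst9, Cst12 and Inha (the inhibin α subunit) had ratios of −1.96, −1.86, −1.64 and −1.48, and the protease inhibitor Eppin had −1.20. Amh, which declines as Sertoli cells mature, had 7.69 CPM in the 2-day culture, 203 CPM at 9 dpp, 24.8 CPM in the culture of 7 days and 40.7 CPM at 14 dpp. Its ratio went from −4.55 in the 2-day pair to −0.69.

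The lowest ratios of Sertoli cell genes were outside that list. Tsx (ENSMUSG00000031329, chromosome X, 103414467 to 103424580), a testis-specific X-linked gene, had 1.54 CPM in the 2-day culture, 7.94 CPM at 9 dpp, 3.14 CPM in the culture of 7 days (2.60 to 3.76) and 130 CPM at 14 dpp (127 to 133). It was 41.3-fold lower in the 7-day culture than at 14 dpp, with a log2 ratio of −4.98. Sertoli-like cells held 96.6% of the UMIs of Helt, a bHLH repressor gene, at 14 dpp, where it had 16.9 CPM against 0.209 CPM in the culture. The connexin gene Gja6 had 16.0 CPM at 14 dpp and 0.314 CPM in the culture, from 930 and 12 UMIs. Both were at most 1.54 CPM at 9 dpp. Aqp8, a water channel gene lost late, had 0 UMIs in the 7-day culture and 231 UMIs at 14 dpp. Tpbgl, also lost late, had 1.01, 1.70, 0.812 and 17.8 CPM in the 2-day culture, 9 dpp, the 7-day culture and 14 dpp. Without the cluster rich in germ cell transcripts the Sertoli-like ratios of Tsx, Helt, Gja6 and Tpbgl were −5.04, −5.18, −4.84 and −3.98, against −4.82, −5.10, −4.72 and −3.94 with it.

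Among Sertoli cell genes, Hsd17b1 and Sel1l3 were past 2-fold higher in the 7-day pair and past 2-fold lower in the 2-day pair, and Ptgds was gained late. Hsd17b1, an enzyme that reduces estrone to estradiol, had 3.85 CPM in the 2-day culture, 34.0 CPM at 9 dpp, 11.7 CPM in the culture of 7 days (10.6 to 12.8) and 3.32 CPM at 14 dpp (2.87 to 3.83). Its log2 ratio went from −2.85 to 1.55, and Sertoli-like cells held 96.4% of its UMIs in the culture. Ptgds, a prostaglandin D synthase, had 11.3, 21.7, 16.9 and 3.10 CPM in that order, with ratios of −0.88 and 2.13. The ratio of Sel1l3 went from −1.26 to 1.27. Cyp26a1, which degrades retinoic acid, had a whole-library ratio of −1.60, with 1.03 CPM in cultured Sertoli-like cells against 17.7 CPM in those of 14 dpp.

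Cdkn2a, the locus of the cell cycle inhibitors p16INK4a and p19ARF, had most of its UMIs in germ-like cells. It had 9.47 CPM in the 2-day culture, 74.6 CPM at 9 dpp, 8.80 CPM in the culture of 7 days (7.88 to 9.79) and 128 CPM at 14 dpp (125 to 131), low in both cultures. Germ-like cells held 92.3% of its UMIs in the culture and 93.8% at 14 dpp, and had 14.7 and 202 CPM, a ratio of −3.69. The ratio was also below −1 in the other large classes, with −3.07 in Sertoli-like, −1.78 in stromal- or myoid-like and −4.38 in Leydig-like cells. The germ-like cells were spread differently over the germ-like clusters, of which 1 held 44 cells of the culture and 774 of 14 dpp and another 271 and 66. A different mixture of germ cells and a different level within them cannot be told apart. Spata7, a cilium gene, had 71.3 CPM in the 2-day culture, 31.2 CPM at 9 dpp, 89.0 CPM in the culture of 7 days and 322 CPM at 14 dpp, so its ratio went from 1.17 to −1.84. Germ cell lists had few or no members past 2-fold, against a background of 3.50% higher and 2.63% lower at which short lists may have none. In all, 0 of 32 genes of meiotic entry and early prophase passed 2-fold in either direction, with a median of −0.11, and 1 of 29 pachytene genes was lower, with −0.19. That gene was Ldhc, the germ cell lactate dehydrogenase, at −1.16. Undifferentiated and differentiating spermatogonia lists had medians of −0.29 and −0.35 with 0 of 21 and 0 of 14 past 2-fold. In the 2-day pair 10 of 21 undifferentiated genes were lower and 0 higher, with a median of −0.99 (background 3.41% and 4.12%). The mitosis list had a median of −0.06, with 0 of 24 past 2-fold.

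**Figure D3:**
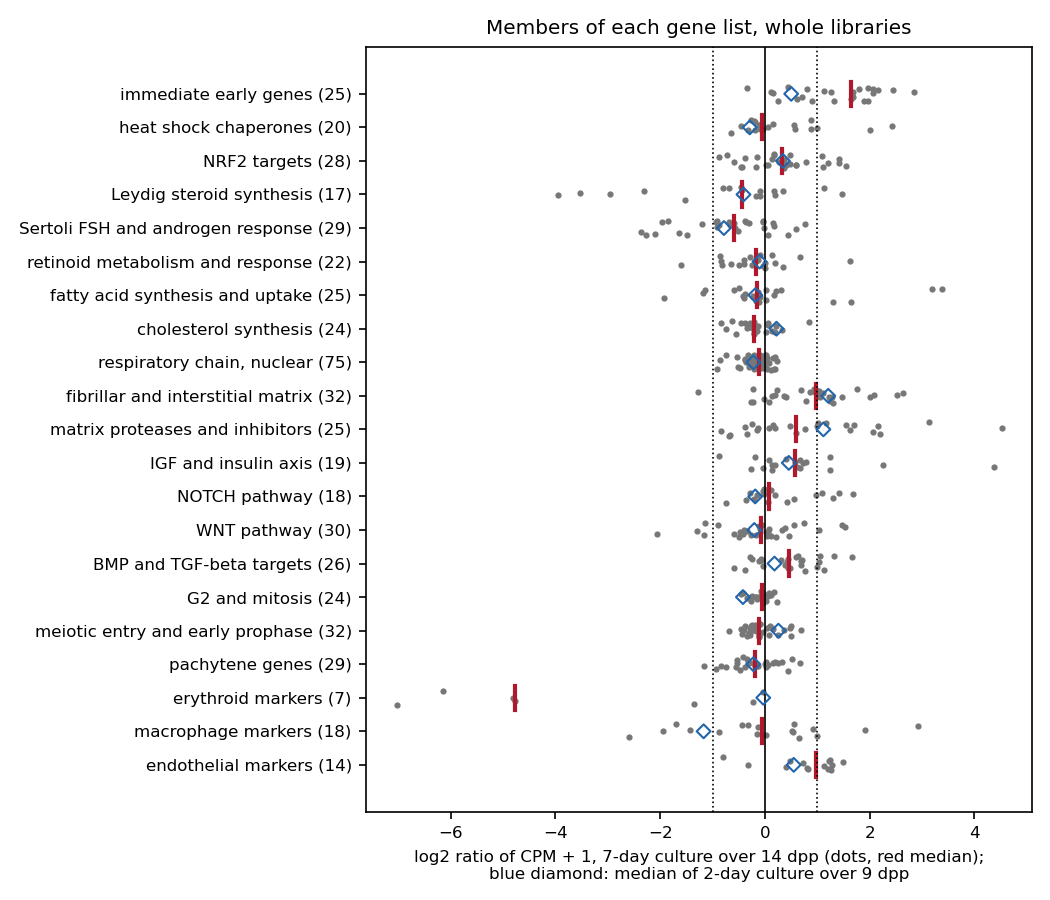
Log2 ratio (7-day culture over 14 dpp, CPM + 1) of each member of 21 gene lists over whole libraries; dots are genes, the red bar is the list median, the blue diamond is the median of the 2-day pair, dotted lines mark 2-fold and the number of genes is in brackets. Immediate early genes have a median of 1.64 against 0.50 in the 2-day pair, and erythroid markers −4.78 against −0.03 (−1.36 in the 7-day pair without the UMI minimum).

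Of 32 fibrillar and interstitial matrix genes 15 were higher and 1 lower over the whole library (background 3.50% and 2.63%), with a median of 0.98 (1.21 in the 2-day pair). Of 26 basement membrane genes, which include laminins and type IV collagens, 1 was higher and 0 lower, with a median of 0.31, which turned to −0.29 with the class shares set equal. Stromal- or myoid-like cells were 30.2% of the culture and 16.9% of 14 dpp. With the class shares set equal the median of the fibrillar and interstitial matrix list was 0.17. Within that class 8 of 32 genes of the fibrillar and interstitial list were higher and 5 lower, with a median of 0.31 (background 5.45% and 4.40%). The collagen gene Col1a1 had 722 CPM in the 2-day culture, 247 CPM at 9 dpp, 338 CPM in the culture of 7 days and 136 CPM at 14 dpp, a whole-library ratio of 1.31 and 0.27 within the class. Lum, a collagen-binding proteoglycan, and Mgp, an inhibitor of mineralization, had whole-library ratios of 2.64 and 2.52. In the same class, against that background, 11 of 21 smooth muscle genes were lower and 0 higher, with a median of −1.04, and Acta2, smooth muscle actin, had 3797 CPM against 8402 CPM. Its culture cells lay mainly in clusters of 647 and 761 cells and its 14 dpp cells in clusters of 627 and 436 cells, so a different mixture and a different level within cells cannot be told apart there.

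Of 25 genes that cut or protect the matrix 10 were higher and 0 lower over the whole library, with a median of 0.60 (background 3.50% and 2.63%) that ran from 0.32 with equal class shares to 1.01 with a minimum of 500 UMIs. Within stromal- or myoid-like cells 7 of 23 were higher and 3 lower, with a median of 0.67 (background 5.45% and 4.40%). The gelatinase gene Mmp2 had 140 CPM in the 2-day culture, 37.3 CPM at 9 dpp, 88.3 CPM in the culture of 7 days and 9.20 CPM at 14 dpp, a ratio of 3.13 and 2.39 within stromal- or myoid-like cells. Its inhibitor gene Timp1 had 750, 22.1, 85.3 and 17.9 CPM in that order, so the ratio fell from 5.03 to 2.19. The serine protease inhibitor Serpina3n had 255, 0.0165, 36.2 and 0.620 CPM, and stromal- or myoid-like cells held 89.5% of its UMIs in the 7-day culture. Serpina3g and Serpina3f of the same cluster had ratios of 4.33 and 3.22. These genes are near-copies, so reads may be shared. Among the highest whole-library ratios were also Ifi204 at 4.09 and its near-copy Ifi202b, with 9.66 CPM in the culture and 0 UMIs at 14 dpp. Neither gene is a matrix gene or a member of the interferon list used as a reference.

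Over whole libraries, most members of the growth factor and signalling lists stayed within 2-fold. The share that was higher exceeded the 3.50% of all genes in each list given here. In the IGF and insulin list 4 of 19 were higher, with a median of 0.57, led by Igfbp3 at 4.38 and the imprinted RNA H19 at 2.25. H19 had 133 CPM in the 2-day culture, 124 CPM at 9 dpp, 75.2 CPM in the culture of 7 days and 15.1 CPM at 14 dpp, so it was even at 2 days and gained late. The imprinted ligand gene Dlk1, also gained late, had 314, 469, 263 and 98.2 CPM, with ratios of −0.58 and 1.41. BMP and TGF-β genes had a median of 0.47 with 5 of 26 higher, among them the activin subunit Inhba at 1.67 and the BMP target Id1 at 1.12, both near 0 in the 2-day pair (−0.01 and 0.06). In the WNT list 3 of 30 were higher and 4 lower (background 3.50% and 2.63%): Rspo3, Wnt4 and Dkk3 against Frzb, Sfrp5, Lef1 and Wif1. NOTCH members Dll4, Dlk1, Heyl and Notch4 were the 4 of 18 that were higher. In the hedgehog list 2 of 12 were higher, Gas1 and Boc, and the target gene Gli1 had 0.32. Stromal- or myoid-like cells were 30.2% of the culture and 16.9% of 14 dpp. Within that class 5.45% of all genes were higher and 4.40% lower. There 2 of 18 IGF and insulin genes were higher and 2 lower, with a median of 0.36. BMP and TGF-β genes had 3 of 23 higher and 3 lower, with 0.34. WNT genes had 4 of 21 higher and 5 lower, with −0.63. NOTCH genes had 2 of 13 higher and 1 lower, with 0.41. Hedgehog genes had 0 of 11 past 2-fold, with −0.06.

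Macrophage-like cells were few but had another gene profile in the culture. There were 25 of them in the culture and 59 at 14 dpp, with medians of 33535 and 7707 UMIs, and they held 1.93% and 0.851% of all UMIs. No doublet was called among them. With under 50 cells in the culture, levels are given side by side and no ratio is drawn. Marco, a scavenger receptor gene (ENSMUSG00000026390, chromosome 1, 120474538 to 120505024), had 3.28 CPM in the whole 2-day culture, 1.42 CPM at 9 dpp, 58.9 CPM in the culture of 7 days and 0.155 CPM at 14 dpp. Macrophage-like cells held 98.8% of its UMIs in the 7-day culture, where these cells had 3020 CPM (2895 to 3148) against 18.2 CPM (8.33 to 34.6) at 14 dpp. Spp1, the secreted phosphoprotein osteopontin, had 217, 4.96, 157 and 3.94 CPM in the 2-day culture, at 9 dpp, in the 7-day culture and at 14 dpp, so it was high in both cultures. Macrophage-like cells held 95.5% of its UMIs in the 7-day culture and 3.93% at 14 dpp. Lgals3, a galectin of phagocytes, had a whole-library ratio of 4.25, which was 1.27 without macrophage- and endothelial-like cells.

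Among lipid handling genes, most UMIs of Lpl and Cd36 in the culture lay in the same cells. Lpl, lipoprotein lipase (ENSMUSG00000015568, chromosome 8, 68880491 to 68907448), stood at 20.6 CPM in the 2-day culture, 26.3 CPM at 9 dpp, 75 CPM in the culture of 7 days (72.3 to 77.8) and 6.32 CPM at 14 dpp (5.69 to 7.00). Its ratio went from −0.34 to 3.38 and macrophage-like cells held 82.5% of its UMIs in the 7-day culture. Without macrophage- and endothelial-like cells the ratio was 1.40, and within Sertoli-like cells it was 2.78. Cd36, a fatty acid transporter and scavenger receptor, had 3.02, 1.98, 28.2 and 2.19 CPM in that order, with 97.9% of UMIs in macrophage-like cells. Its ratio of 3.20 turned to −0.23 without those classes. Gpnmb and Fabp4 had 0 UMIs in macrophage-like cells of 14 dpp and 793 and 321 UMIs in those of the culture. Plin2, which coats lipid droplets, had 1706 CPM in macrophage-like cells of the culture and 299.5 CPM in those of 14 dpp. In the fatty acid list as a whole 4 of 25 were higher and 3 lower (background 3.50% and 2.63%), with a median of −0.16: Lpl, Cd36, Fabp4 and Plin2 against Thrsp, Fads2 and Plin1.

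Cbr2, F13a1, Mrc1, Folr2 and C1qa, all expressed by macrophages, were lower in the culture. Cbr2 had 0 UMIs in either culture, 5.87 CPM at 9 dpp and 10.3 CPM at 14 dpp, at least 131-fold higher at 14 dpp with the culture set to a floor of 3 UMIs. F13a1 had 0 UMIs in macrophage-like cells of the 7-day culture and 986 CPM in those of 14 dpp. The mannose receptor gene Mrc1 and the folate receptor gene Folr2 had 19 and 10.9 CPM in cultured macrophage-like cells against 676 and 455 CPM. The complement gene C1qa had 537 CPM (485 to 593) against 4130 CPM (3953 to 4314). Lyz2, the lysozyme of myeloid cells, was depleted in the 2-day culture and abundant in the 7-day culture, with 6.54 CPM in the 2-day culture, 70.5 CPM at 9 dpp, 198 CPM in the culture of 7 days and 51.7 CPM at 14 dpp. Its ratio of 1.92 became −0.26 with each cell weighted equally, and that of Cd52, a leukocyte surface gene, went from 2.00 to −0.16. Of 18 macrophage markers 2 were higher and 4 lower over the whole library (background 3.50% and 2.63%), with a median of −0.06, and their summed level was 365 CPM in cultured tissue and 252 CPM at 14 dpp.

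**Figure D4:**
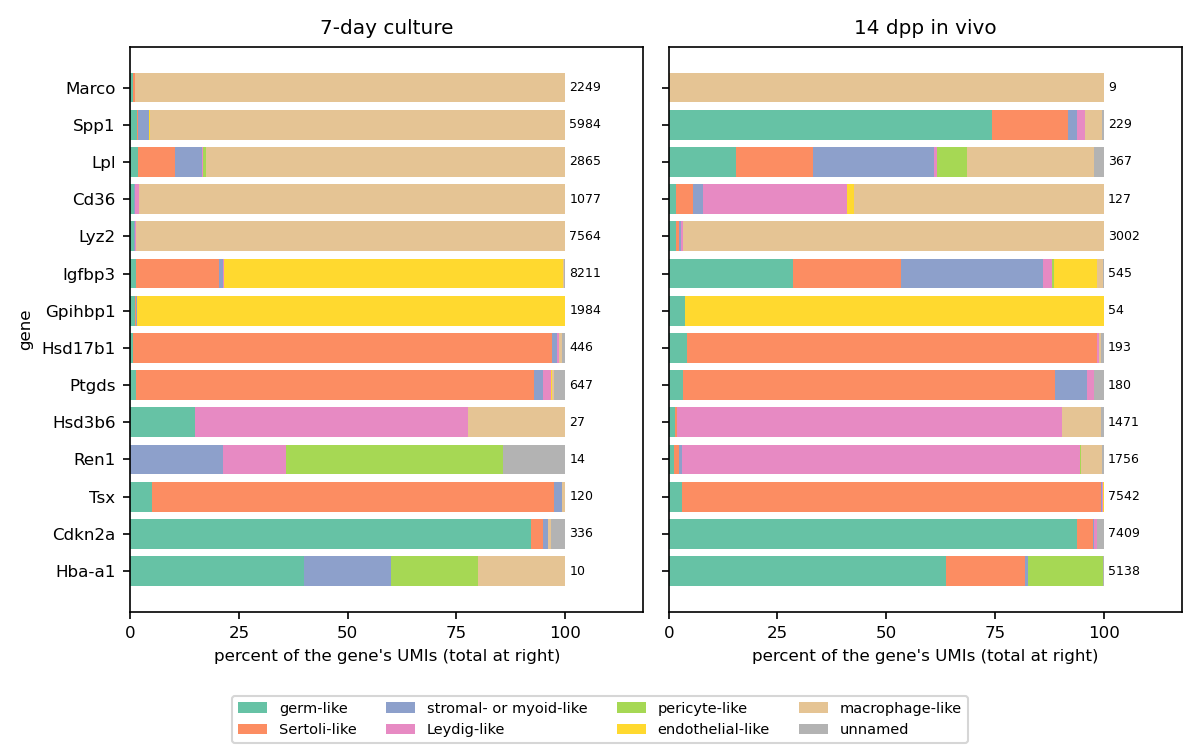
Share of the UMIs of 14 genes that lay in cells of each class, in the 7-day culture (left) and at 14 dpp (right), with the total UMIs of the gene at the right of each bar. Macrophage-like cells held 98.8% of Marco and 82.5% of Lpl UMIs in the culture, and endothelial-like cells 98.4% of Gpihbp1 UMIs.

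Endothelial-like cells, 24 in the culture and 46 at 14 dpp, carried another pair of high ratios. Gpihbp1, which anchors lipoprotein lipase on capillary endothelium, had 34.6 CPM in the 2-day culture, 2.60 CPM at 9 dpp, 51.9 CPM in the culture of 7 days and 0.930 CPM at 14 dpp. Within endothelial-like cells it had 2934 CPM (2805 to 3067) in the culture and 111 CPM (83.2 to 146) at 14 dpp. Igfbp3 had 9646 and 114 CPM in them, and these cells held 78.2% of its UMIs in the culture. In Sertoli-like cells Igfbp3 had 232 and 9.11 CPM, a ratio of 4.52. The tip cell ligand gene Dll4 had 326 and 81.4 CPM in endothelial-like cells. Of 14 endothelial markers 7 were higher over the whole library and 0 lower (background 3.50% and 2.63%), with a median of 0.98, and with 0.31 when class shares were equal. Median counts per endothelial-like cell were 22179.5 UMIs in the culture and 6697 UMIs at 14 dpp.

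Haemoglobin transcripts were nearly absent from the 7-day culture. The adult β-globin gene Hbb-bs had 61.3 CPM in the 2-day culture, 37.3 CPM at 9 dpp, 0 UMIs after 7 days in culture and 130 CPM at 14 dpp. It was at least 1655-fold lower in the 7-day culture, set to the floor of 3 UMIs, than at 14 dpp. Hba-a1 had 59.5, 37.6, 0.262 and 88.5 CPM in that order. Of 7 erythroid markers 5 were lower and 0 higher (background 2.63% and 3.50%), with a median of −4.78 against −0.03 in the 2-day pair. Without the minimum of 50 UMIs, which had left out the rarest markers, the median was −1.36. No cluster was named for erythroid cells, and 65.1% of the Hbb-bs UMIs at 14 dpp lay in germ-like, 16.7% in pericyte-like and 16.6% in Sertoli-like cells. Reads of Hba-a1 and Hba-a2, and of Hbb-bs and Hbb-bt, cannot be fully told apart. Other classes at 14 dpp held them too, and the source of these transcripts was not tested.

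**Figure D5:**
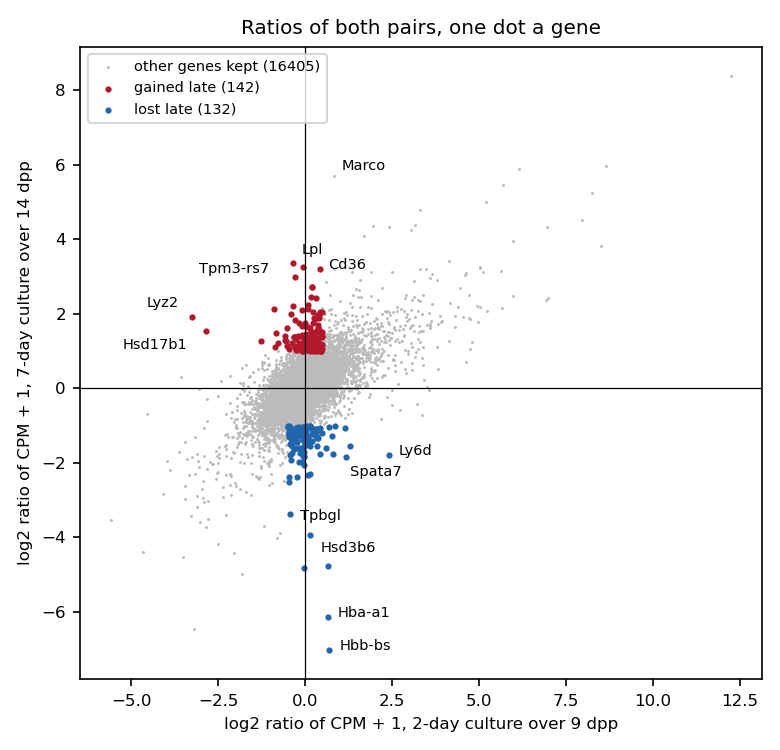
Log2 ratio of each of 16679 genes in the 7-day pair (vertical) against that in the 2-day pair (horizontal), 1 dot a gene, with genes gained late in red (142) and lost late in blue (132). Lpl and Cd36 stand above and Hbb-bs, Hba-a1 and Hsd3b6 below, between −0.34 (Lpl) and 0.70 (Hbb-bs) on the horizontal axis.

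The late calls differed in which side moved. Among the 142 genes gained late, the change from the 2-day to the 7-day culture was the larger part for 72 and the change from 9 to 14 dpp for 70. Among the 132 genes lost late, a rise from 9 to 14 dpp was the larger part for 103 and a fall in culture for 29. The median change of the lost genes was 1.11 in vivo and −0.13 in culture. These counts split the same values that made the calls and are a description. Hsd3b6, Tpbgl and Aqp8 belong to the group that rose in vivo, and Star and the globin genes fell in culture as well.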

How the data were processed

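The deposited files hold raw UMI counts per gene and cell barcode for 4 droplet libraries (10x Chromium 3′), made by the authors with Cell Ranger 3.0.2 and the mm10 build, per the submitters' processing notes. Barcodes below 500 genes or above 20% mitochondrial UMIs were dropped, and counts were summed per library or class and scaled to CPM. Ratios are log2 of CPM + 1 for genes whose UMIs summed to 50 or more in the 4 libraries. A call is 2-fold and there is no test, since each group has 1 library. Cells were clustered with scanpy 1.11.5 and leidenalg 0.10.2 (2000 variable genes, 30 components, 20 neighbours, resolution 1) and named from markers. Called doublets were kept and their removal was tried. Intervals are 95% Poisson. Genes were named after leaving out members of the inflammation and interferon lists, mitochondrial genes and symbols of the Gm or Rik kind. They were the 12 highest and 12 lowest ratios and the 8 gained and 8 lost late with the largest difference between the pairs. List members were named by size or role. Members and lists were chosen with earlier results of these data known. Aqp8 was chosen after its values were seen. The scaling and calling steps were tested on simulated library counts, and the summing over cells was not. Coordinates are those of GENCODE M21 (GRCm38). Alternatives were other filters, pseudocounts, TMM factors (edgeR 4.0.16), equal cell weights and equal class shares. Some list members are not reported here.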

Additional observations from a re-analysis of the deposited data

Results flagged for a closer look

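Genes past 2-fold in opposite directions in the 7-day and the 2-day pair stood out, and the difference between the pairs was not tested, with 1 library a group. Lyz2, a myeloid lysozyme, had log2 ratios of 1.92 and −3.25, a difference of 5.16. The estradiol-forming enzyme gene Hsd17b1 had 1.55 and −2.85, a difference of 4.40. For Sel1l3 the ratios were 1.27 and −1.26, a difference of 2.53. Ly6d went the other way, with −1.78 and 2.40, a difference of −4.18. Spata7 had −1.84 and 1.17, a difference of −3.01.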

How the results depend on the processing

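Whole-library counts, the medians of the lists described over whole libraries and named genes of the rule were recomputed under 10 alternatives, 9 planned and 1 added after seeing the data. Values within cell classes were recomputed only without the Sertoli-like cluster rich in germ cell transcripts. Of 445 values of the 45 named genes past 2-fold, 442 kept their sign and 428 also stayed past 2-fold. Lyz2 and Cd52 turned to −0.26 and −0.16 with each cell weighted equally, and Cd36 to −0.23 without macrophage- and endothelial-like cells. With 0.1 added to the CPM, 1083 genes were higher, 973 lower, 287 gained late and 270 lost late, and erythroid markers had −7.79. With 10 added the counts were 149, 114, 35 and 30, and the medians were 0.82 for immediate early genes, 0.53 for matrix and −1.87 for erythroid markers. With the same class shares on both sides 342 genes were higher, and immediate early, Sertoli hormone response and matrix genes had 1.22, −0.23 and 0.17. A minimum of 500 UMIs left 87 genes lost late. Stricter cell filters gave −0.36 for Sertoli hormone response and −4.91 for erythroid markers. Equal cell weights gave −0.76, −4.86 and 0.71 for matrix. Without a UMI minimum erythroid markers had −1.36. No paired analysis was possible because each group has 1 library. Replicate spread is unknown, and genes with few UMIs have wide counting intervals.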

Other observations

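A small set of genes differed by nearly the same ratio in all 4 large cell classes. Of 8139 genes measured in germ-, Sertoli-, stromal- or myoid- and Leydig-like cells, 23 (0.283%) were past 2-fold the same way in each, 10 higher and 13 lower, and 7 of them varied by under 1 on the log2 scale between classes. Tpm3-rs7, a near-copy of a tropomyosin gene, had 47.6 CPM in the 2-day culture, 58.2 CPM at 9 dpp, 37.0 CPM in the culture of 7 days and 3.81 CPM at 14 dpp. Its class ratios ran from 2.56 in Leydig-like to 3.10 in Sertoli-like cells. The mitochondrial gene mt-Atp8 had ratios from −2.54 to −1.69 and was low in both cultures, with 69.9 and 107 CPM against 599 and 413 CPM in vivo. Nmt1, an N-myristoyltransferase gene, had ratios from −1.49 to −1.14. Reads of near-copies such as Tpm3-rs7 are uncertain, and the part of library preparation or read assignment in these values was not tested.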
